A study of Caenorhabditis elegans with 2 samples.

Results

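The genes described here are the HSP70, HSP90 and HSP60 chaperones of Caenorhabditis elegans, a set of 10 genes out of 41560 gene names in the deposited expression tables. They were chosen by name: hsp-1, hsp-70, daf-21, dnj-12 and dnj-13 of the cytosol, hsp-3 and hsp-4 of the endoplasmic reticulum (ER), hsp-6 and hsp-60 of mitochondria, and hsf-1. All 10 names were found in both tables, and their loci carried 100 of the 77986 peaks listed for one library and 117 of the 105255 peaks listed for the other. The data are seCLIP-seq, in which RNA crosslinked to a protein is pulled down with it and sequenced as a single-end library. The protein was CAR-1, which binds RNA, belongs to the LSm14 family and sits in cytoplasmic granules of mRNA and protein. The library called FL below was labelled CAR-1(FL) and came from strain CZ25180. The library called dSm below was labelled CAR-1(dSm) and came from strain CZ26430. GFP-trap, a reagent that captures GFP, was the antibody for both. The labels do not state the stage, tissue or growth conditions, the promoter of the tagged protein, or what dSm stands for.

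HSP70 proteins bind exposed hydrophobic stretches of unfolded chains in a cycle driven by ATP, J-domain proteins bring them clients and start the cycle, HSP90 acts late on signalling proteins, and HSP60 encloses a chain in a barrel. The transcription factor HSF-1 induces the cytosolic members after heat, while unfolded protein in the ER or in mitochondria induces hsp-4 or hsp-6 and hsp-60 through separate pathways. Constitutive members, some of which stress raises further, are expressed in animals kept without stress, and those made mainly under stress are low.

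With 1 library per form there is no spread between samples, no p-value was computed, and every difference below describes these libraries only. The peak folds rest on totals of 4022150 reads in FL and 5470606 in dSm, a ratio of 1.36. The expression tables rest on far fewer, 233868 and 368745 fragments implied by the authors' bounds. No input library was used here, so the amount of an RNA and the share of it that was captured cannot be told apart. In bulk samples, fewer cells of a type and less RNA per cell cannot be told apart either. Tissue markers were not level between the libraries. All 8 neuronal markers were higher in dSm, with a summed FPKM (fragments scaled by transcript length and by mapped fragments) of 10.804 against 5.54 and 1 marker listed at 0 in FL. All 6 epidermal and cuticle markers were higher in FL, with a summed FPKM of 69.4 against 36.4 and col-141 listed at 0 in dSm. All 4 muscle and all 4 germline markers were higher in FL, and the 4 intestinal markers were split. Many of these differences were within counting error. The authors' bounds lay apart between the libraries for 2 neuronal, 3 epidermal, 1 muscle and 0 germline markers. They also did for 1 intestinal marker in each direction. Separate bounds are a stricter rule than the fold intervals from implied fragments used below. By those intervals col-19, rol-6 and unc-54 were also higher in FL beyond counting error. Their folds, dSm over FL, were 0.725 (0.582 to 0.904), 0.532 (0.331 to 0.856) and 0.827 (0.703 to 0.974). The neuronal gene flp-12 alone gave 2.94 of the FL sum, from 0.463 implied fragments. The part of the tissue markers in the results below was not tested.

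By FPKM none of the 10 genes differed between the libraries beyond its counting error, and none of the 7 members that reached an FPKM of 1 in either library was 1 log2 unit apart. Over all 4361 genes at that level, a difference of 1 unit or more was found for 14.3% toward FL and for 15.2% toward dSm, so a count of 0 among 7 genes is little removed from the background. The median difference of log2(FPKM + 1), FL minus dSm, was −0.05 over the 7 members and 0.07 over the 4361 genes. Deposited intervals overlapped between the libraries for each of the 9 members above 0. In the authors' deposited table, which compares the same 2 libraries, 6 members were tested and had q-values from 0.724 to 0.998. That table tested 3278 genes and gave 0 with a q-value under 0.05 and 169 with a p-value under 0.05.

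**Figure D1:**
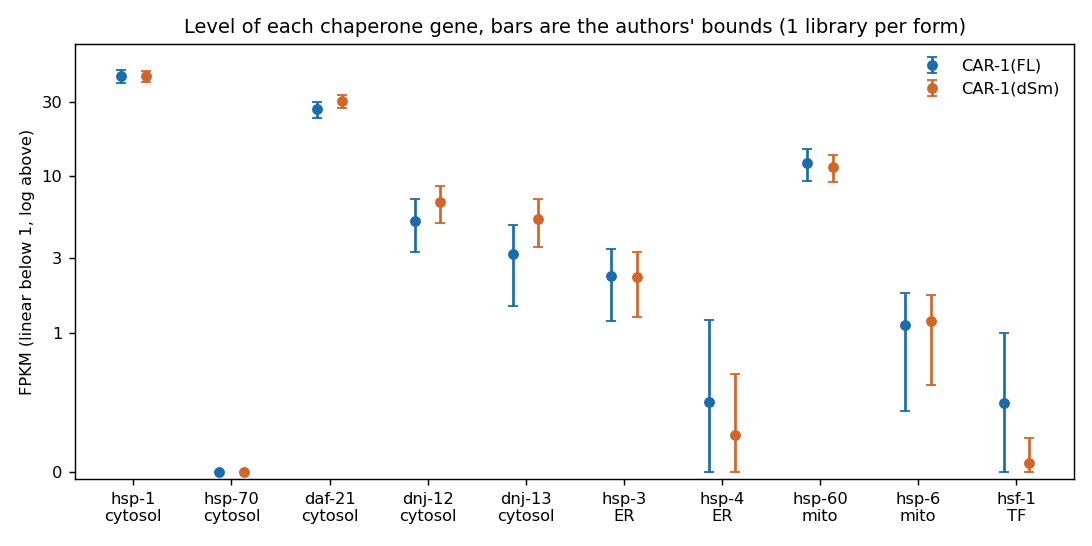
FPKM of the 10 genes in FL (blue) and dSm (orange), 1 library each, with the authors' lower and upper bounds as bars; the vertical axis is linear below 1 and logarithmic above. hsp-1 leads at 43.5 and 43.6, hsp-70 is listed at 0 in both, and the intervals of each gene overlap between the libraries.

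The gene hsp-1 encodes the constitutive cytosolic HSP70 (chromosome IV from 17278927 to 17281148, ce10). Its FPKM was 43.5 in FL, with bounds of 39.2 and 47.7, and 43.6 in dSm, with bounds of 40.1 and 47.0. The fold, dSm over FL, was 1.002 with a 95% interval of 0.886 to 1.13. This interval and those for FPKM folds below come from the implied fragments and cover counting error only. Its FPKM was the highest of the set in both libraries. The gene hsp-70 encodes a heat-inducible HSP70 (chromosome I from 9320404 to 9322473) and was listed at 0 in both. HSP90 is encoded by daf-21 (chromosome V from 14686149 to 14688410). Its FPKM was 26.7 in FL, with bounds of 23.5 and 29.9, and 30.3 in dSm, with bounds of 27.5 and 33.0, a fold of 1.13 with an interval of 0.976 to 1.31.

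The J-domain genes were lower and less precise. The gene dnj-12 encodes a J-domain partner of HSP70 (chromosome I from 14757068 to 14758421). It stood at 5.20 in FL and 6.90 in dSm, a fold of 1.33 with an interval of 0.849 to 2.07. For dnj-13, a J-domain gene of another class (chromosome II from 11545650 to 11546907), the values were 3.19 and 5.35, from 14 and 34.7 implied fragments. Its fold of 1.68, with an interval of 0.901 to 3.12, was the highest of the 4 measured cytosolic members. All 4 folds were at or above 1, and each interval took in 1.

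The ER members encode HSP70 proteins of the BiP type, which fold chains in the ER. The constitutive hsp-3 (chromosome X from 6089356 to 6091728) had an FPKM of 2.32 in FL and 2.27 in dSm, a fold of 0.978 with an interval of 0.514 to 1.86. The stress-induced hsp-4 (chromosome II from 7350217 to 7352431) had 0.509 and 0.265, from 2.07 and 1.46 implied fragments, and both intervals reached 0. The hsp-3 level was 4.57 times that of hsp-4 in FL and 8.57 times in dSm. Both genes encode closely related proteins, and the treatment of reads that match several places is not stated in the sources, so their split is uncertain.

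The mitochondrial members differed from each other much more than between the libraries. For hsp-60, the chaperonin (chromosome III from 1619750 to 1625397), the FPKM was 12.16 in FL, with bounds of 9.31 and 15.004, and 11.5 in dSm, with bounds of 9.28 and 13.8. The fold was 0.947 with an interval of 0.703 to 1.28. The mitochondrial HSP70 gene hsp-6 (chromosome V from 4824591 to 4826741) had 1.12, with bounds of 0.444 and 1.79, and 1.19, with bounds of 0.631 and 1.76, a fold of 1.07 with an interval of 0.504 to 2.26. The hsp-60 level was thus 10.9 times that of hsp-6 in FL and 9.65 times in dSm. The regulator hsf-1 (chromosome I from 11953788 to 11961953) stood at 0.497 and 0.0648, from 3.82 and 0.493 implied fragments, with both intervals reaching 0.

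The order of levels was the same in both libraries, hsp-1, daf-21, hsp-60, dnj-12, dnj-13, hsp-3, hsp-6, hsp-4, hsf-1 and hsp-70. Intervals of neighbours lay apart for hsp-1 and daf-21, for daf-21 and hsp-60 and for hsp-60 and dnj-12 in both libraries. In dSm they also lay apart for dnj-13 and hsp-3. The remaining neighbours could not be ordered. By compartment, the median difference of log2(FPKM + 1), FL minus dSm, was −0.26 over 4 cytosolic, 0.14 over 2 ER and 0.01 over 2 mitochondrial members. The cytosolic values ran from −0.60 to 0.00 and the ER values from 0.02 to 0.25. The higher ER value is that of hsp-4, which was below an FPKM of 1 in both libraries. With 0.1 added to the FPKM in place of 1, the 3 medians were −0.29, 0.38 and −0.004. The medians of the log2 peak folds, FL over dSm, were −0.19, −0.003 and −0.13. The difference between compartments was not tested.

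The peak lists count reads at single sites. A peak's authors' log2 fold compares the listed library with the other, and the exact values let the read numbers of both libraries be recovered for 106 of the 217 member peaks. This worked only for peaks that were higher in the library of their own list, so the peaks with reads were selected by direction and their counts are not shares of all sites. Folds from reads below are per total reads, dSm over FL, with an exact (Clopper-Pearson) 95% interval that covers counting error only. Neighbouring peaks can share reads, so the peaks of a gene are not independent.

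The listed peaks of hsp-1 were not spread over the gene. All 9 peaks of each list lay between 17280008 and 17280135, a stretch 128 bases long near the middle of a locus of 2222 bases, and all touched F26D10.24, a small nucleolar RNA (snoRNA) gene from 17280009 to 17280132. Small nucleolar RNAs guide modification of other RNAs, and the reference table lists F26D10.24 as one. Its FPKM was 52013 in FL, with bounds of 48414 and 55611, and 58080 in dSm, with bounds of 55026 and 61135. Its most covered listed peak (17280095 to 17280105) held 7794 reads in FL and 11258 in dSm, or 0.194% and 0.206% of the libraries. Counts at hsp-1 peaks are therefore counts on the snoRNA stretch, and hsp-1 had no listed peak elsewhere, although its FPKM was the highest of the set. Both genes overlap and the expression tables give no strand, so how reads were divided between them is uncertain.

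Across that stretch the libraries differed little but precisely. The strongest peak by the authors' −log10 p, 16.3, lay from 17280061 to 17280081 and held 5136 reads in FL and 8113 in dSm, a fold of 1.16 with an interval of 1.12 to 1.20. At the 3′ edge, from 17280130 to 17280135, the direction turned, with 3338 reads against 4298 and a fold of 0.947. Of 9 hsp-1 peaks with recovered reads, 8 had an interval above 1, all from the dSm list, and 1, from the FL list, below. In genes with at least 4 listed peaks, 23.6% of 52025 such intervals from the dSm list lay above 1 and 8.94% of 27939 from the FL list lay below 1, over both lists 15.4% above and 3.12% below, at any depth. The hsp-1 median log2 fold, FL over dSm, of −0.16 lay close to the median of −0.14 over all genes with at least 4 listed peaks. Every listed peak lay on a short noncoding locus inside the gene, as in hsp-1, for 54 of 7908 protein-coding genes with at least 4 listed peaks, or 0.683%. Only 977 of the 7908 held such a locus, of 60 to 1000 bases, and the others could not show the pattern.

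**Figure D2:**
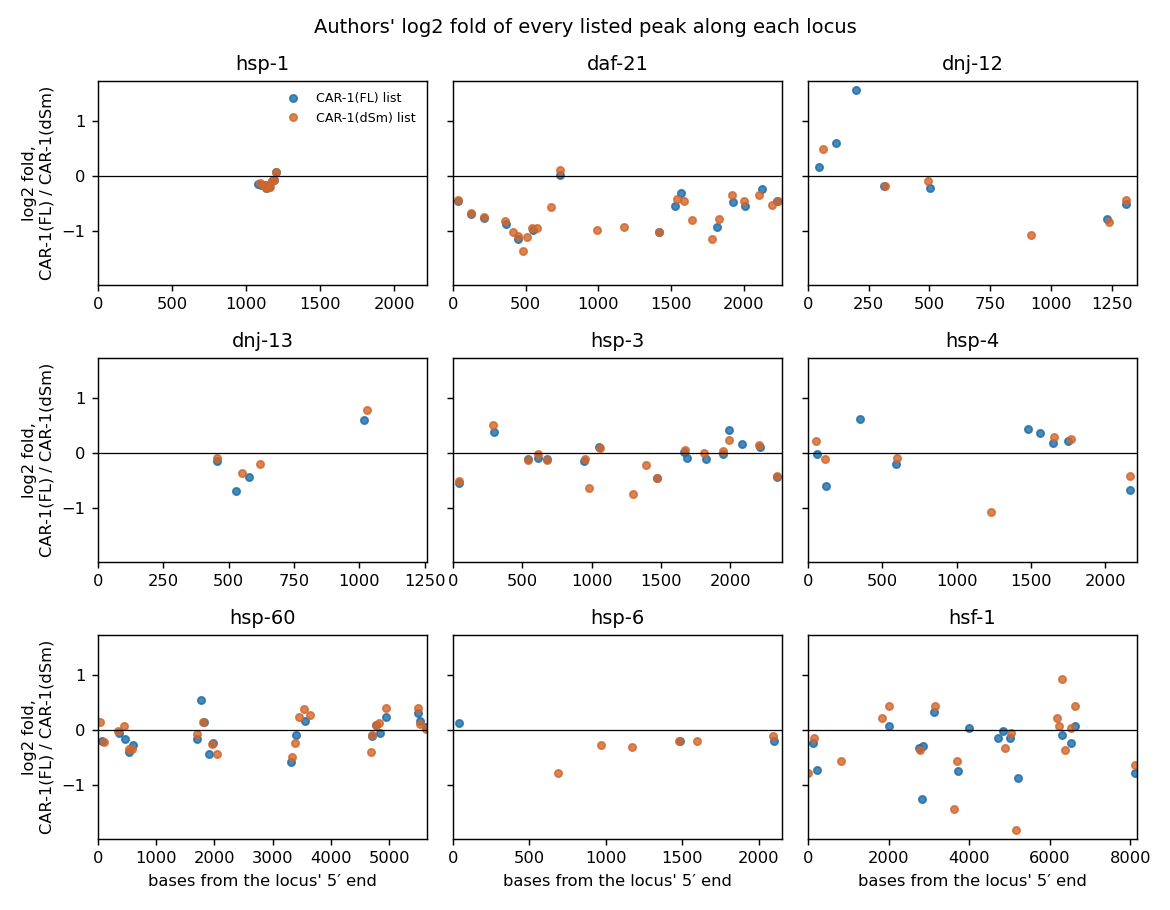
Authors' log2 fold of each listed peak, turned to FL over dSm, against its distance in bases from the 5′ end of the locus, taken from the strand of the peaks; blue points are peaks of the FL list and orange points of the dSm list. The hsp-1 peaks sit in 1 short stretch, 38 of 40 daf-21 peaks lie below 0, as do 8 of 9 for hsp-6, 6 of 8 for dnj-13 and 24 of 36 for hsf-1, while hsp-4 has 8 of 16 and hsp-60 23 of 43; of all peaks of both lists, 61.4% lie below 0.

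The HSP90 gene daf-21 stood apart among the members at its peaks. Of its 40 listed peaks, 38 were lower in FL, where 49.7% of all FL-list peaks and 70.1% of all dSm-list peaks were. All 15 of its FL-list peaks overlapped a dSm-list peak, so the 40 count many sites more than once. The median log2 fold of the 40 peaks, FL over dSm, was −0.72, or 1.65-fold higher in dSm. The medians of the other 8 members with at least 4 listed peaks lay between −0.21 and 0.08. Over all 9604 genes with at least 4 listed peaks the median was −0.14, the middle 50% ran from −0.45 to 0.16, and 13.7% were at or below the daf-21 value. No other locus of the tables overlapped daf-21.

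Along daf-21 the difference varied with position. The peak with the highest −log10 p, 15.6, was centred 446.5 bases from the 5′ end (14686566 to 14686624) and held 150 reads in FL and 439 in dSm, a fold of 2.15 with an interval of 1.78 to 2.61. Its neighbour from 14686625 to 14686641 had the highest fold, 2.64 with an interval of 1.94 to 3.64, from 54 reads against 194. Beyond this stretch, from 14686827 to 14686939, a peak of the FL list held 276 reads in FL and 369 in dSm, a fold of 0.983 with an interval of 0.839 to 1.15. The libraries were thus level at that site. The peaks on either side of it, from 14686811 to 14686836 and from 14687122 to 14687153, had folds of 1.499 (1.13 to 1.996) and 2.02 (1.45 to 2.84), and the former overlaps the level peak.

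Further 3′ the fold was again above 1. The peak from 14687905 to 14687948 held 97 reads against 297, a fold of 2.25 with an interval of 1.78 to 2.86. At the 3′ end (14688359 to 14688411) the reads were 238 and 445, a fold of 1.37 with an interval of 1.17 to 1.62. Over the 25 peaks with recovered reads, 23 intervals lay above 1 and 2 took in 1; 24 of the 25 came from the dSm list. The share above 1 over all such dSm-list intervals was 23.6%, at any depth. The daf-21 peaks of that list with recovered reads held at least 50 reads in FL and 109 in dSm. Deeper peaks have narrower intervals, so the 2 shares are not matched for depth. The FPKM fold of 1.13 and the peak folds are scaled by different totals, and the difference between them was not tested.

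**Figure D3:**
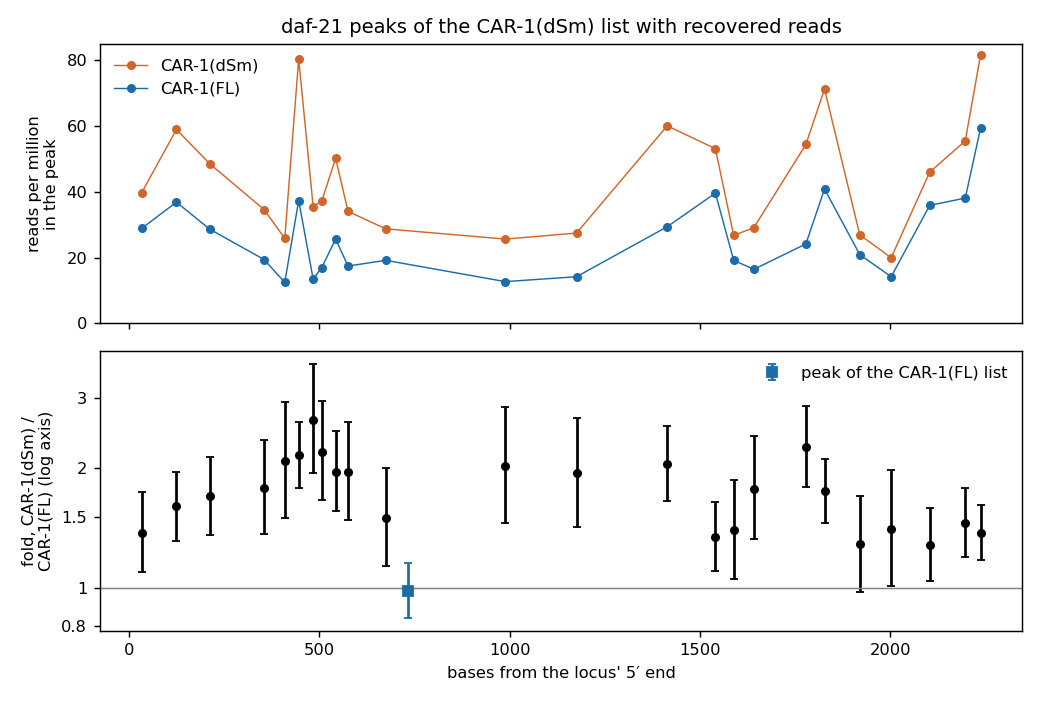
Upper panel, reads scaled by total reads (RPM) in each daf-21 peak of the dSm list with recovered reads, in dSm (orange) and FL (blue); lower panel, the fold of dSm over FL on a log axis with 95% counting intervals, and the blue square is a peak of the FL list. Both panels run in bases from the 5′ end of the locus. Folds reach 2.64 in the 5′ part, fall to 0.983 at the blue square and are 1.37 at the 3′ end.

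In the whole set 0 member peaks passed both thresholds in either list, 3 for the −log10 p and 3 for the log2 fold, both as the authors gave them, where 0.0167% of all FL peaks and 0.119% of all dSm peaks did. With a log2 fold of 1 in place of 3, the count was 0 of 100 in the FL list, where the share of all peaks was 0.224%. In the dSm list it was 7 of 117, or 5.98%, where the share of all peaks was 1.99%. Of these 7 peaks, 6 lay in daf-21, some of them side by side, and 1 lay in hsf-1. That hsf-1 peak (11956714 to 11956878) held 8 reads in FL and 43 in dSm, a fold of 3.95 with an interval of 1.84 to 9.73. It overlaps the noncoding locus F47B8.17, which is 20 bases long and was listed at 0 in both libraries. The other 10 hsf-1 peaks with recovered reads had intervals that took in 1, and the hsf-1 median log2 fold over 36 peaks was −0.19.

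Among the J-domain genes, the sign of the fold changed with position, but few sites differed beyond counting error. No peak of either gene reached a −log10 p of 3. In dnj-12 a peak centred 116.5 bases from the 5′ end held 28 reads in FL and 24 in dSm, a fold of 0.630 with an interval of 0.350 to 1.13. A peak 2 bases wide at 14757265 held 13 and 5 reads, a fold of 0.283 with an interval of 0.0789 to 0.845. Near its 3′ end (14758271 to 14758343) the reads were 29 and 73, a fold of 1.85 with an interval of 1.19 to 2.95, and at 14757969 to 14758001 they were 13 and 40, a fold of 2.26 with an interval of 1.19 to 4.61. Of the 8 dnj-12 peaks with recovered reads, 2 intervals lay above 1, 1 lay below and 5 took in 1. Over all such intervals, at any depth, 23.6% from the dSm list lay above 1 and 8.94% from the FL list below. The authors' folds of all 13 dnj-12 peaks, recovered or not, were positive toward FL up to 14757266 and negative from 14757321 on. In dnj-13 the sign changed the other way. Its peak near the 3′ end (11546646 to 11546690) held 29 reads in FL and 25 in dSm, a fold of 0.634, while the peak from 11546158 to 11546245 held 39 and 70, a fold of 1.32. All 4 dnj-13 intervals took in 1, so no difference at a site of this gene was detectable at this depth.

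Most ER sites with recovered reads had intervals that took in 1. Of the 14 hsp-3 peaks with recovered reads, 11 had an interval that took in 1. The other 3 were higher in dSm and came from the dSm list, which gave 9 of the 14. Over all such intervals, at any depth, 23.6% from the dSm list lay above 1 and 8.94% from the FL list below. The strongest of the 3 lay from 6090416 to 6090444 with 26 reads against 62, a fold of 1.75 with an interval of 1.09 to 2.89. The strongest hsp-3 peak of the FL list by −log10 p (6091399 to 6091472) held 76 reads in FL and 78 in dSm, a fold of 0.755 with an interval of 0.543 to 1.05. In hsp-4 all 9 intervals took in 1. Its strongest peak of the dSm list by −log10 p held 6 and 20 reads (7351189 to 7351211), and that of the FL list, at another site, held 18 and 15 (7352064 to 7352099). The median log2 fold, FL over dSm, was −0.09 for hsp-3 and 0.08 for hsp-4.

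All 18 hsp-60 peaks with recovered reads had an interval that took in 1, and the median log2 fold over its 43 listed peaks was −0.05. The hsp-60 peak with the most reads (1623186 to 1623428) held 113 in FL and 136 in dSm, a fold of 0.885 with an interval of 0.684 to 1.15. In hsp-6, 6 of 7 intervals took in 1. The exception, from 4826025 to 4826084, held 32 reads in FL and 77 in dSm, a fold of 1.77 with an interval of 1.16 to 2.76. It came from the dSm list, where 23.6% of all such intervals, at any depth, lay above 1. The hsp-6 peak at the 5′ end (4826685 to 4826713) was in the FL list alone, yet it held 37 and 45 reads, so a site absent from a list still held reads. The only peak at hsp-70 (9321566 to 9321598) held 0 reads in FL and 3 in dSm; the locus lies inside that of uggt-2, which is listed at 0 as well.

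Peak reads and FPKM ranked the members differently. In dSm the most reads recovered in 1 listed peak were 136 for hsp-60, 133 for hsp-3 and 102 for hsp-6, although the hsp-60 FPKM was 9.65 times that of hsp-6. These peaks were 243, 87 and 80 bases wide, and the reads were not scaled by width. For 8 of 9 members that peak held more reads than the fragments implied for the whole gene, and daf-21 was the exception, with 445 reads against 487 fragments. That exception is uncertain. A wider daf-21 peak of the FL list (14688333 to 14688415) takes in the site, and its reads were not recovered. More reads than fragments is the background: it held for 92.3% of 7468 genes with at least 4 listed peaks, recovered reads and implied fragments, whose median ratio was 5.33. The ratio was 17.9 for hsp-1, on the snoRNA stretch, 6.57 for hsp-3, 5.67 for hsp-6 and 30.2 for hsp-4. For hsf-1 it was 87.2, from 0.493 implied fragments. Lower ratios were 2.02 for dnj-13, 1.57 for dnj-12, 1.28 for hsp-60 and 0.913 for daf-21. FL gave the same count, 8 of 9, where 90.2% of 6865 genes did, with daf-21 at 276 reads against 279 fragments. Since the ratio differed between members, the order of levels by FPKM is uncertain, the top rank of hsp-1 included.

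**Figure D4:**
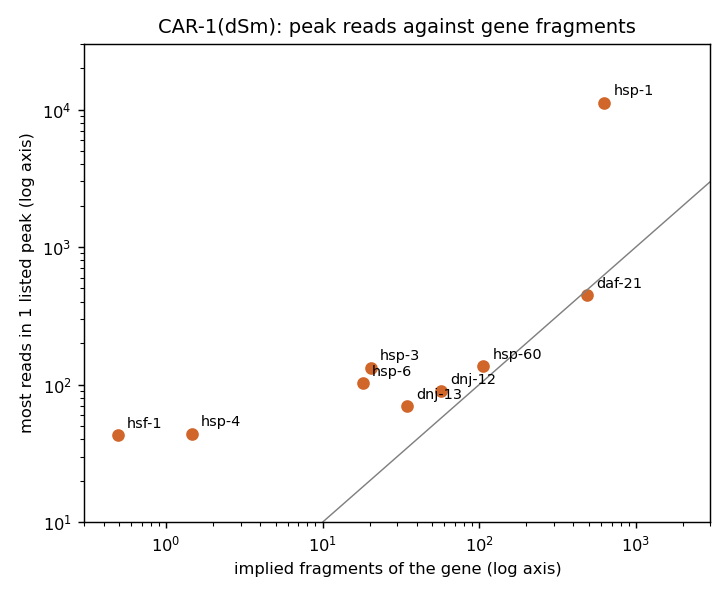
Most reads recovered in 1 listed peak against the fragments implied for the whole gene in dSm, both on log axes, 1 point per gene without hsp-70; the grey line marks equality. Only daf-21 lies below the line, hsp-60 lies close to it at 136 reads, and hsp-3, hsp-4, hsp-6, hsf-1 and hsp-1 lie well above.

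The sites were largely the same in both lists. Of the FL peaks in the member loci, 89 of 100 overlapped a dSm peak by 1 base on the same strand, against 69.3% of all FL peaks. In the other direction it was 95 of 117, or 81.2%, against 53.5% of all dSm peaks. Each member had all its peaks on 1 strand. Listed peaks covered 43.9% of the daf-21 locus in the dSm list and 32.7% in the FL list, against 25.9% and 25.2% for hsp-60 and 5.76% and 5.63% for hsp-1.

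Other genes of protein folding were read from 8 lists, of which 97 names were in the tables and 47 reached an FPKM of 1 in either library. Of these, 8 were at least 1 log2 unit higher in FL, 2 were at least 1 unit higher in dSm and 37 were within 1 unit, beside shares of 14.3%, 15.2% and, for either direction, 29.5% over all 4361 genes. Their median difference was 0.13, beside 0.07 over all genes. All 9 measured ER folding genes were within 1 unit. Among them pdi-2, a protein disulfide isomerase, stood at 23.7 in FL and 19.9 in dSm, and enpl-1, the ER HSP90, at 5.45 and 7.81, a fold of 1.43 with an interval of 1.05 to 1.96. The calreticulin gene crt-1 stood at 7.33 and 6.93. All 6 measured cochaperones were within 1 unit, such as fkb-6 at 4.13 and 4.09 and sti-1, which links HSP70 to HSP90, at 4.28 and 5.12.

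The cytosolic HSP70 gene F44E5.4 was 2.34-fold higher in FL, at 5.14 with bounds of 3.67 and 6.61 against 2.20 with bounds of 1.42 and 2.98, and its intervals lay apart. It has a close copy, F44E5.5, listed at 0.363 and 0.102, so its level is uncertain. It was the 1 gene of its list of 4 that reached an FPKM of 1; hsp-110 stood at 0.423 and 0.772. The CCT chaperonin folds actin and tubulin; of its 7 measured genes 5 had the higher value in dSm and 2, cct-5 and cct-6, in FL, and all 7 fold intervals took in 1. Those with the most fragments were cct-7 (5.52 and 6.86), cct-2 (5.07 and 5.76) and cct-1 (3.61 and 5.12). The prefoldin gene pfd-3 stood at 4.11 in FL and 0.335 in dSm, from 8 and 1 implied fragments, a fold of 0.0815 with an interval of 0.0102 to 0.652. The prefoldin genes pfd-1 and pfd-6, named like cct-5 and cct-6 after their values were seen, were also at least 1 unit higher in FL, with overlapping intervals.

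Small heat shock genes were thinly covered. The gene hsp-12.2 stood at 11.4 in FL and 2.78 in dSm from 8 and 3 implied fragments, and hsp-16.11 at 3.90 and 1.02 from 4.996 and 1.99. Deposited intervals overlapped for both, while the fold of hsp-12.2, 0.245, had an interval of 0.0649 to 0.922 and that of hsp-16.11, 0.261, one of 0.0505 to 1.35. The gene sip-1, a small heat shock protein of embryos, stood at 11.9 and 8.61. Among mitochondrial genes, Y22D7AL.10, the HSP10 lid of the HSP60 barrel, was listed at 0 in FL and at 5.82 in dSm, with bounds of 1.07 and 10.6, so no fold is given. The mitochondrial HSP90 gene trap-1 was level at 9.52 and 9.10. Of the other J-domain genes, 1 of 5 measured was at least 1 unit higher in FL, and dnj-11 stood at 1.96 and 2.10. Of 4 measured stress regulators, 2 were at least 1 unit higher in FL, each from at most 1 implied fragment: hsb-1, at 3.58 and listed at 0 in dSm, and dve-1, at 1.94 and 0.171, both named after their values were seen. The gene xbp-1, a transcription factor of the ER stress response, stood at 11.9 and 13.4.

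**Figure D5:**
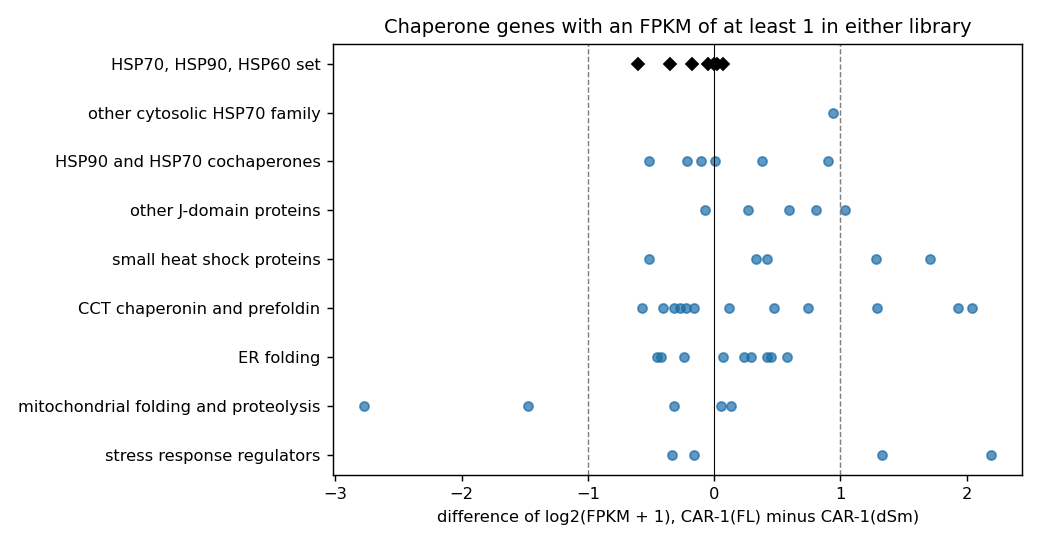
Difference of log2(FPKM + 1), FL minus dSm, for each chaperone gene that reached an FPKM of 1, 1 point per gene and 1 row per list; dashed lines mark 1 log2 unit in either direction. The 7 black diamonds of the HSP70, HSP90 and HSP60 set lie between −0.60 and 0.07, and 10 of the 47 genes of the other lists lie past a dashed line.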

How the data were processed

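Reads were processed with UMI-tools, cutadapt, STAR and SAMtools on build ce10, per the submitters' processing notes, without versions or roles. The sources used here name no peak caller and no annotation. The authors deposited 1 FPKM table per library with bounds (Cufflinks layout, per the file headers), a table of their comparison with log2 folds, p-values and q-values (Cuffdiff layout, per the file headers), and 1 peak list per library. From its values, a peak's deposited scores are a −log10 p, capped at 400, and a log2 fold over the other library.

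Implied fragments follow from bounds 2 standard errors from the FPKM. The deposited folds are exact ratios of whole reads with 1 read added to the other library; this form matched 213 of 213 comparisons at intervals in both lists. Fold and p were matched to Fisher's exact test below 5 reads and to a Yates-corrected chi-square otherwise, with a relative tolerance of 0.0002. At somewhat higher counts Fisher's test was also accepted where the chi-square did not match. Reads were recovered for 92.2% and 94.7% of 1000 peaks drawn per list with a −log10 p of at least 0.02, and the added read was removed. That minimum was first 0.1 and was lowered after a daf-21 peak was seen not to be recovered. The recovery was tested on simulated peaks built with the same fold form and the same tests. That checks the inversion and cannot show that the authors' scores have this form. Peaks were assigned to loci by 1 base (bedtools 2.31.1; Python 3.11.15, SciPy 1.17.1). The pseudocount was 1. Named were the members, up to 3 genes per list with the most implied fragments, genes at least 1 unit apart with separate intervals, and each member's top peaks; further daf-21, dnj-12, hsp-1 and hsp-60 peaks were chosen after their values were seen. Members and lists were chosen with earlier results of these data known. The reference table is of WBcel235 and served for gene types alone, so peaks were not placed in exons, introns or UTRs.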

Additional observations from a re-analysis of the deposited data

How the results depend on the processing

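No paired analysis was possible because each form has 1 library. Of 82 values recomputed under another setting, 78 stayed within their error or spread or, for counts, within 1.5 times. For members with few fragments that error is wide. With 0.1 added to the FPKM in place of 1, the difference was 1.86 in place of 0.491 for hsf-1. For hsp-4 it was 0.736 in place of 0.254, and both were counted as within error. The FPKM values of the authors' comparison table are larger, so the pseudocount weighs less and more genes pass the filter. With them the number of members at least 1 log2 unit apart was 1 in place of 0. This gene was hsf-1, 1.41 units higher in FL, and the authors' comparison left it untested. Its median log2 peak fold, FL over dSm, was −0.19, toward dSm. With a log2 fold of 1 in place of 3, the number of member peaks past the thresholds was 7 in place of 0. When an overlap had to cover at least 50% of the peak, the share of member peaks found in the other list was 81.0% in the FL list and 68.4% in the dSm list. No share over all peaks is given at this setting, so these values cannot be set beside the shares at 1 base. With a recovery minimum of 0.1 in place of 0.02, reads were recovered for 93 in place of 106 member peaks, and 23 daf-21 intervals lay above 1 with either; the level daf-21 peak has no reads at 0.1. Leaving out the hsp-1 locus, an alternative chosen after seeing the data, gave a median peak fold of −0.18, as with it. The alternative that used the strand of the gene was not run, because the reference table gives no strand. Depth limits hsp-4, hsf-1 and hsp-70 most, with under 4 implied fragments in each library.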
